A study of Mus musculus with 48 samples.

Results

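Proximal and distal pyramidal cells of mouse hippocampal area CA1 were compared in 6 of the 48 libraries of the series, 3 libraries per group. All gene rows of the deposited count table entered, without spike-in sequences and summary lines, and 12710 of the 37620 genes held enough reads to be tested. Both groups were fluorescent neurons picked by hand from microdissected slices, and their total RNA was amplified with the Ovation RNA-seq v2 kit after ERCC spike-in RNA was added. The series gives the 3 libraries of a population as biological replicates sequenced on a HiSeq 2500. The strain, age and sex of the animals, the line or tracer that made the cells fluoresce, the number of animals and cells pooled, and the slice level along the long axis are not given in the sources used here. No treatment is named for either group.

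CA1 is the output field of the hippocampus proper. Its transverse axis runs from the proximal end, next to CA2 and CA3, to the distal end, next to the subiculum. Proximal CA1 is known to receive mainly medial entorhinal input and distal CA1 mainly lateral entorhinal input. The pyramidal layer is also divided in depth into a superficial sublayer toward the stratum radiatum and a deep sublayer toward the stratum oriens.

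The 6 libraries held 19.4 M to 32.0 M reads in genes (M, mega), and mitochondrial transcripts took 8.27% to 8.83% of them. Gene levels are given as CPM, the counts of a gene relative to the scaled total of its library (TMM factors over all 48 libraries), and log2 fold changes are proximal minus distal. CPM values are not divided by gene length, so levels were compared within a gene only. Profiles of replicates correlated at 0.879 to 0.926 (Pearson's r across genes) and profiles of opposite groups at 0.863 to 0.918. The first principal component, 30.3% of the variance, put all 3 proximal libraries on one side and all 3 distal libraries on the other.

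Several properties differed among the 6 libraries apart from position. Xist, the RNA made from the inactive X chromosome, was at 643 and 769 CPM in proximal replicates 1 and 2, at 6.24 in proximal replicate 3, and at 2.35 to 4.22 in the distal libraries. The Y-linked gene Ddx3y stood at 0.0447 and 0 CPM in proximal replicates 1 and 2, at 38.8 in proximal replicate 3 and at 35.4 to 66.9 in the distal libraries. Sex and position therefore cannot be told apart for proximal replicates 1 and 2. The summed level of 12 GABAergic markers was 405 CPM in proximal replicate 1, 3.16 and 4.20 in the other proximal libraries, and 5.66 to 9.95 in the distal libraries. Gad1, the enzyme that makes GABA, was at 45.3 CPM in proximal replicate 1 and at 1.66 or less in the other 5 libraries. Pvalb, which marks fast-spiking interneurons, was at 81.3 CPM in proximal replicate 1, under 1 CPM in the other proximal libraries, and at 10.6 to 15.1 in the distal libraries. The summed level of 13 oligodendrocyte markers was 309 CPM in proximal replicate 3, 32.4 and 41.0 in the other proximal libraries, and 24.5 to 61.4 in the distal libraries. A pair of marker lists was added after the values were seen, and neither was tested. Of 14 markers of peripheral sensory neurons, which have no cell bodies in the hippocampus, 11 were higher in every proximal than in every distal library, and 11 had no reads in any distal library. Their summed level was 6.74 to 9.32 CPM in proximal and 0.141 to 0.878 in distal libraries. Scn10a, a sodium channel of pain-sensing neurons, was at 1.16, 1.28 and 1.47 CPM in proximal and 0 in distal libraries. It had reads in 1 of the 42 other libraries of the series, and Mrgprd in 0. Other markers of this list were found more widely. Calca had reads in 9 of the 42, at up to 24 CPM, Prph in 10, at up to 2.06, and P2rx3 in 26, at up to 5.66. P2rx3 was also at 0.539 and 0.753 CPM in distal replicates 1 and 2. Of 10 markers of cerebellar Purkinje cells, 6 were higher in every distal than in every proximal library. Ppp1r17, a phosphatase inhibitor of Purkinje cells, was at 2.31, 2.26 and 2.16 CPM in distal libraries and 0 in proximal ones. Pcp2, a marker of Purkinje and retinal bipolar cells, was at 1.04, 1.55 and 1.55 CPM in distal and at 0.313 or less in proximal libraries. Neither gene was confined to the distal libraries. Pcp2 had reads in 27 of the 42 other libraries, at up to 1.59 CPM, and Ppp1r17 in 13, at up to 0.816 CPM. Genes with at least 10 reads in every library of one group and none in the other numbered 25 for proximal and 5 for distal cells, at mean levels of 0.468 to 10.6 CPM. The part of such RNA in the differences between the groups was not tested. In bulk libraries, fewer cells of a type and less RNA per cell cannot be told apart.

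Both groups held CA1 pyramidal markers. Of the 8 tested, 0 were called by edgeR, while 6 had an unadjusted p under 0.05 and DESeq2 called 4. Over all genes, 13.5% had an unadjusted p under 0.05 in edgeR, and DESeq2 called 5.66%. Wfs1, an endoplasmic reticulum protein typical of CA1 neurons, was at 1650 ± 153 CPM in proximal and 1510 ± 125 in distal cells (SD, n = 3 each). Of 15 CA2 markers, 9 were tested and edgeR called 0 (4 at an unadjusted p under 0.05, 1 by DESeq2). Amigo2, which marks CA2, was at 1.16 CPM or less in all 6 libraries, and Avpr1b was at 0. Of 14 subiculum markers, 8 were tested and edgeR called 0 (1 at an unadjusted p under 0.05, 1 by DESeq2), and Fn1, which marks the subiculum, was at 0.0469 CPM or less in all 6 libraries. Of 13 CA3 markers, 10 were tested and 1, Spock3, was higher in distal cells, beside 0.244% of all genes tested. The summed level of the CA3 list was 68.6 to 85.3 CPM in proximal and 120 to 179 in distal libraries, and that of 8 choroid plexus and ependymal markers 41.4 to 62.8 and 77.0 to 137. The sums of the CA2 list (355 to 416 and 276 to 354) and of 12 dentate granule cell markers (148 to 184 and 92.5 to 134) were higher in every proximal library. The part of these cell types in the differences was not tested.

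The comparison asked which genes differ between the ends of the transverse axis. Of the 12710 genes, 135 passed edgeR's quasi-likelihood test at a Benjamini-Hochberg adjusted p under 0.05 (1.06%). Of these, 104 were higher in proximal cells (0.818% of genes tested) and 31 were higher in distal cells (0.244%). Most differences were small: 55 of the 104 and 16 of the 31 were under 2-fold, and 34 genes reached 3-fold, 26 of them higher in proximal cells. In all 135 genes every library of one group lay above every library of the other, as it did in 19.3% of all genes tested. The number called fell to between 16 and 94 when 1 library was left out, 16 without distal replicate 2 and 29 without distal replicate 1. It was 68 without proximal replicate 1 and 81 without proximal replicate 3. It was 5 without both libraries high in Xist and 6, all higher in proximal cells, with a term for Xist level. The former fit sets 1 proximal against 3 distal libraries, so the lone proximal library is assumed to vary as the distal ones do. A lost call there says little about stability. Both libraries high in Xist are proximal, so with the Xist term the estimate for position rests largely on proximal replicate 3. A call lost in that fit also says little about stability. All 135 genes kept their direction in each of these fits. The part of sex and of other cells in these differences was not tested.

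**Figure D1:**
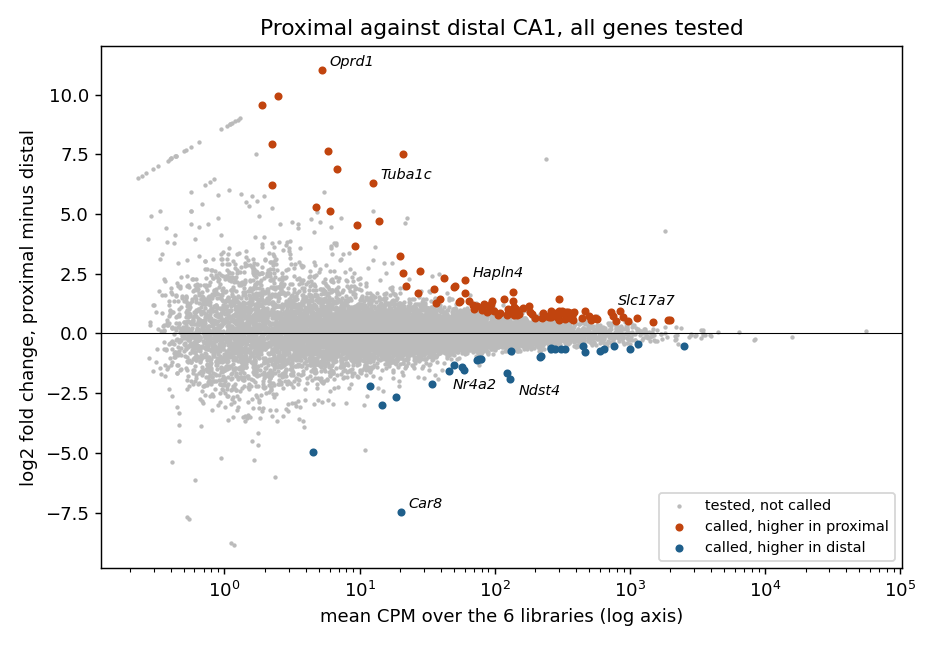
Log2 fold change, proximal minus distal, against the mean level over the 6 libraries (CPM, log axis) for the 12710 genes tested, with 104 called genes higher in proximal and 31 higher in distal cells in colour. Of the 135 called genes, 34 reach 3-fold. Car8 has the largest fold change of those higher in distal cells (log2 fold change -7.46). Tuba1c (6.32) is exceeded on the proximal side by genes such as Oprd1 (11.05) and Atp6v0c-ps2 (7.53). The straight line of points at low level and high fold change holds genes with no reads in the distal libraries.

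The base composition of transcripts moved with the comparison. The median GC content of the longest annotated transcript was 56.1% for the 104 genes higher in proximal cells, 43.6% for the distal ones, and 49.2% for all genes tested. Across 12292 genes with a value, log2 fold change and GC content had a Spearman correlation of 0.26, and of 0.47 across the 1964 genes at 100 CPM or more; these are correlations across genes, which are not independent replicates. Each proximal library deviated from the mean of the 6 toward high GC (rho of 0.10 to 0.18 across genes) and each distal library toward low GC (-0.11 to -0.19). A correction for GC content and length, chosen after the data were seen, left 23 of the 135 genes called, 16 higher in proximal and 7 in distal cells. All 134 called genes with a value kept their direction, and the median size of their log2 fold change went from 0.96 to 0.68. Whether composition differs between the cells or arose in the libraries was not tested.

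**Figure D2:**
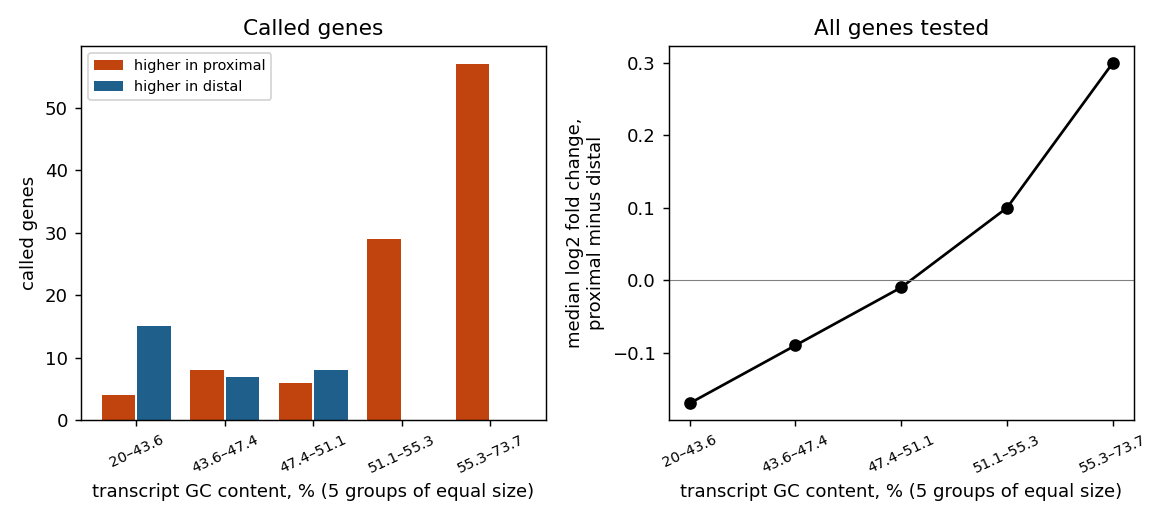
Genes tested, in 5 groups of equal size by transcript GC content (x axis, %). Left, the number of called genes higher in proximal or distal cells; right, the median log2 fold change of all genes in a group, which went from -0.17 in the lowest to 0.30 in the highest. The group with most GC held 57 genes higher in proximal and 0 higher in distal cells, and the group with least held 4 and 15.

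Genes higher in distal cells were led by Car8 (ENSMUSG00000041261), a carbonic anhydrase-related protein without enzyme activity that binds the IP3 receptor. Car8 was at 0.625, 0 and 0.06 CPM in the proximal libraries and at 35.5, 42.4 and 43.7 in the distal ones. It was thus near 0 in each proximal library and well above it in each distal one. The log2 fold change was -7.46 ± 0.86 (SE; adjusted p = 0.00261, edgeR), and Car8 remained called with any 1 library left out and after the GC correction (adjusted p = 0.00206). With a term for Xist level its log2 fold change was -9.28, and it was not called (adjusted p = 0.0867, edgeR). Among the other 15 populations its highest mean was 2.37 ± 0.778 CPM, in deep CA1 cells. Car8 is also strongly expressed in Purkinje cells, and the distal libraries held 2.16 to 2.31 CPM of Ppp1r17; the part of Purkinje cell RNA in the Car8 difference was not tested.

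Ndst4 (ENSMUSG00000027971), an enzyme that sulfates heparan sulfate chains, was at 47.5, 62.0 and 51.7 CPM in the proximal libraries and at 271, 174 and 167 in the distal ones. The groups were far apart, with the widest spread among the distal libraries. Its log2 fold change was -1.90 ± 0.21 (adjusted p = 0.00219), and it was called with any 1 library left out and after the GC correction (adjusted p = 0.00258). Col11a1 (ENSMUSG00000027966), a fibrillar collagen chain, was at 9.56, 18.5 and 10.3 CPM in proximal and 48.7, 53.3 and 66.4 in distal libraries. Every distal library held more than the highest proximal one, and the log2 fold change was -2.11 ± 0.33 (adjusted p = 0.0114). It was also called after the GC correction (adjusted p = 0.0301), and was not called without proximal replicate 3 or without any 1 of the distal libraries.

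Nr4a2 (ENSMUSG00000026826), an orphan nuclear receptor and immediate-early gene that also marks deep cortical and claustral neurons, was at 49.6, 76.2 and 51.0 CPM in proximal libraries. The distal libraries held 243, 139 and 177 CPM, without overlap between the groups, as the naming rule required. The log2 fold change was -1.64 ± 0.24 (adjusted p = 0.00924), or -1.66 after the GC correction (adjusted p = 0.0192), and the call was lost without distal replicate 1. Its promoter is printed with that of Tuba1c, an alpha tubulin gene with one of the smallest p in the comparison, because Nr4a2 was higher in distal cells while the immediate-early genes Egr1 and Arc were higher in proximal cells. Capitals mark TGACG on either strand, the core of the site bound by the activity-regulated factor CREB.
Nr4a2: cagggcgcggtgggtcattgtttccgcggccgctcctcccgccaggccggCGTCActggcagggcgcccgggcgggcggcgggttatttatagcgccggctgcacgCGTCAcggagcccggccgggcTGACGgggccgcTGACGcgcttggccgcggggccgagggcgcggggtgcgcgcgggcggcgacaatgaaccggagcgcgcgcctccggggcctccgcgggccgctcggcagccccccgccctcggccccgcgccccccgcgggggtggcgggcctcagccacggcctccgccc
Tuba1c: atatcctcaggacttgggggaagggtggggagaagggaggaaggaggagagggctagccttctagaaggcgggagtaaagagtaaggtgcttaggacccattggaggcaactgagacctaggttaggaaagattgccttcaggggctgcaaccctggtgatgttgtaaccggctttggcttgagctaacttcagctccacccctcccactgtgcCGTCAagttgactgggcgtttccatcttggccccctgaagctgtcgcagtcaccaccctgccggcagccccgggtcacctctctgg
Both are RefSeq sequences of build GRCm38.p6, 300 bases each, from 250 bases before to 50 after the gene start, chr2:57123954-57124253 on the minus strand and chr15:99029641-99029940 on the plus strand. The Nr4a2 window held 4 matches and 81.7% GC, and the Tuba1c window held 1 match and 58% GC. Genes with a listed promoter were counted if any of their listed promoters held TGACG on either strand. This was so for 22.4% of 67 genes higher in proximal cells and 27.3% of 22 higher in distal cells. Over all genes tested it was so for 37% of 9375. A match is a string of letters and not a measured binding site.

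Spock3, a testican proteoglycan, was at 6.39, 1.48 and 1.77 CPM in proximal libraries and at 25.5, 24.3 and 29.0 in distal ones. Sema3a, a secreted axon repellent, was at 5.18, 2.07 and 7.46 CPM in proximal and 42.5, 32.7 and 20.8 in distal libraries. Both were low in every proximal library, with 7.98-fold more Spock3 (adjusted p = 0.0314) and 6.39-fold more Sema3a (adjusted p = 0.0272) in distal cells. Their adjusted p after the GC correction was 0.0908 and 0.059. Spock3 stayed called in 1 of the 6 fits that left out a library and Sema3a in 2. Osbpl3, an oxysterol-binding protein, was at 22.8 ± 3.57 CPM in proximal and 69.1 ± 14 in distal cells (SD, n = 3), and was called also after the GC correction (adjusted p = 0.0387). Slc38a2, a neutral amino acid transporter, was at 30.1 ± 10.8 and 88.6 ± 7.84 CPM, and was called also after the correction (adjusted p = 0.0436). Both calls were lost in 4 of the 6 fits that left out a library. Lower in the ranking by fold were Lyrm4, a mitochondrial iron-sulfur cluster assembly factor (2.65-fold), Rnf139, a ubiquitin ligase of the endoplasmic reticulum (2.48-fold), Tnfaip8l3 (2.11-fold) and Srp9, a subunit of the signal recognition particle (2.08-fold). None of these 4 was called after the GC correction. Zdhhc2, a palmitoyltransferase, was at 149 ± 22.2 CPM in proximal and 294 ± 21.9 in distal cells (log2 fold change -0.96 ± 0.15, adjusted p = 0.0100; 0.075 after the correction).

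**Figure D3:**
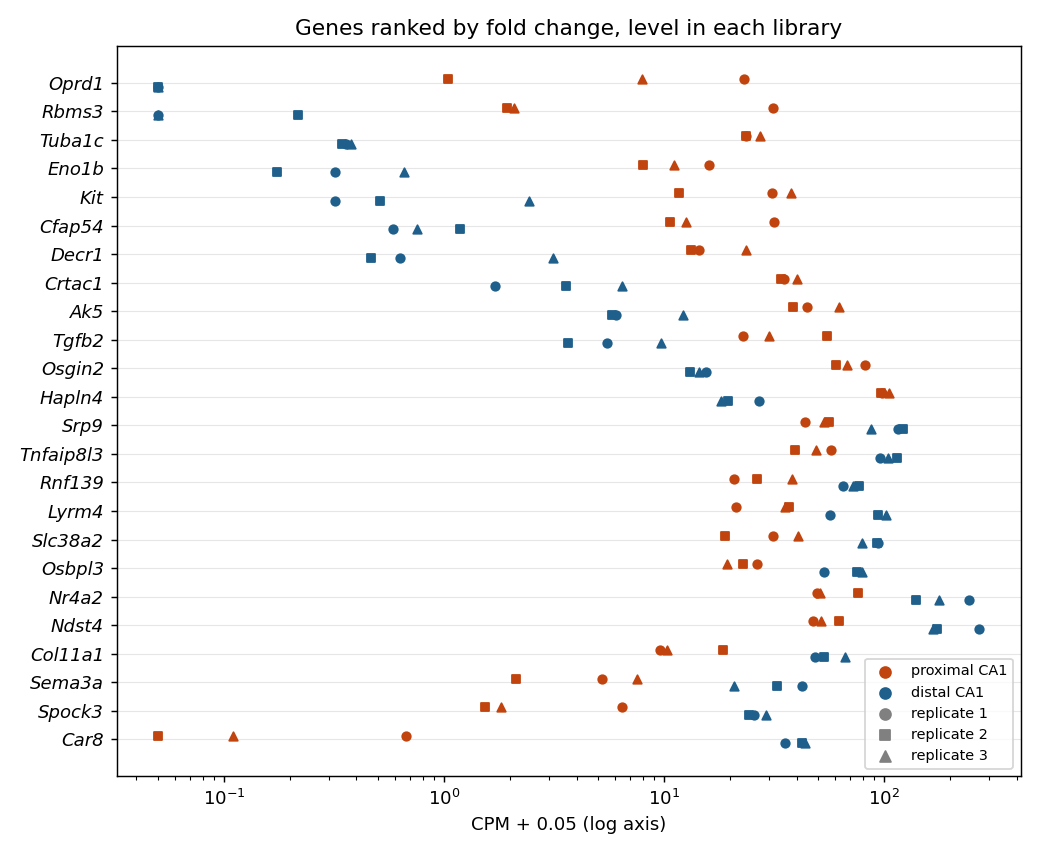
Level (CPM + 0.05, log axis) in each of the 6 libraries of the 12 genes per direction with the largest fold change among named genes, ordered by log2 fold change; colours give the group and symbols the replicate. The rule for naming genes required that the groups not overlap, which held for 19.3% of all genes tested. The proximal libraries lie far apart for Oprd1 and Rbms3, which are highest in proximal replicate 1.

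The genes higher in proximal cells included 3 of the extracellular matrix. Hapln4 (ENSMUSG00000007594), a link protein that joins hyaluronan to proteoglycans in perineuronal nets, was at 97.5, 96.7 and 105 CPM in proximal libraries and at 27.0, 19.4 and 18.1 in distal ones. The proximal libraries lay close together at several times the distal level. Its log2 fold change was 2.23 ± 0.23 (adjusted p = 0.00191). It was called with any 1 library left out, with a term for Xist level (adjusted p = 0.0283) and after the GC correction (1.93, adjusted p = 0.00258). Hapln4 was at 259 ± 27.8 CPM in dorsal CA3 and 232 ± 63.1 in PV interneurons (SD, n = 3). Sdc3, a heparan sulfate proteoglycan of the cell surface, was at 84.3, 86.3 and 106 CPM in proximal and 24.8, 34.5 and 27.1 in distal libraries (log2 fold change 1.70 ± 0.22, adjusted p = 0.0061; 0.0498 after the GC correction). It too was called with any 1 library left out. Spock2, another testican, was at 415 ± 18.4 and 232 ± 23.0 CPM (adjusted p = 0.0076; 0.124 after the correction). Of 28 extracellular matrix genes tested, 3 were higher in proximal cells (Hapln4, Spock2, Sdc3) and 2 in distal cells (Spock3, Col11a1), beside 0.818% and 0.244% of all genes tested. The list's median log2 fold change was 0.44, beside 0.00 over all genes tested. After the GC correction the counts were 2 and 1, and without both libraries high in Xist they were 0 and 0.

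Fgf11 (ENSMUSG00000042826), an intracellular FGF homologous factor of the kind that binds sodium channels, was at 77.7, 90.7 and 73.2 CPM in proximal and 16.3, 20.2 and 25.1 in distal libraries. Its log2 fold change was 2.00 ± 0.25 (adjusted p = 0.0051), and it remained called with any 1 library left out and after the GC correction (adjusted p = 0.0202). Crtac1 (ENSMUSG00000042401), a secreted matrix protein, was at 35.0, 33.8 and 40.2 CPM in proximal and 1.66, 3.55 and 6.42 in distal libraries. Both genes were high in all 3 proximal libraries, and the log2 fold change of Crtac1 was 3.25 ± 0.49 (adjusted p = 0.00956; 0.038 after the GC correction). The call on Crtac1 was lost without distal replicate 2. Ak5, a brain adenylate kinase, was at 48.4 ± 12.5 CPM in proximal and 7.98 ± 3.65 in distal cells (adjusted p = 0.00956, and 0.0382 after the correction). Without distal replicate 1 or 2 Ak5 was not called. Tgfb2, a secreted growth factor, was at 36.0 ± 17.0 and 6.23 ± 3.11 CPM (adjusted p = 0.0272; 0.075 after the correction).

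Osgin2 (ENSMUSG00000041153), an oxidative stress induced growth inhibitor family member, was at 82.0, 60.4 and 68.1 CPM in proximal and 15.5, 13.1 and 14.3 in distal libraries. The distal libraries barely varied, and the log2 fold change was 2.32 ± 0.26 (adjusted p = 0.00219), with a like value after the GC correction (2.42, adjusted p = 0.00206). It was called with any 1 library left out. Its mean was 33.8 CPM or less in each of the 15 other populations. Among the protein-coding genes of mouse chromosome 4 in RefSeq, the order is Calb1, Decr1, Nbn, Osgin2 and Ripk2, so Nbn lies between Decr1 and Osgin2. Decr1, a mitochondrial enzyme of fatty acid breakdown, was at 14.4, 13.2 and 23.6 CPM in proximal and 0.578, 0.418 and 3.09 in distal libraries (log2 fold change 3.67 ± 0.77, adjusted p = 0.0448). Nbn, a DNA double-strand break repair protein, was at 40.5, 41.1 and 64.9 CPM in proximal and 22.7, 14 and 20.8 in distal libraries, and did not pass (log2 fold change 1.37 ± 0.31, adjusted p = 0.064). All 3 genes had every proximal library above every distal one. The groups did not overlap, in either direction, in 19.3% of all genes tested, and the naming rule required this of Osgin2 and Decr1. The flanking genes Calb1 and Ripk2 had adjusted p of 0.658 and 0.977. Whether the 3 genes share a cause was not tested. Decr1 was called in 1 of the 6 fits that left out a library. Among the 15 other populations Decr1 had its highest mean, 18.6 CPM, in PV interneurons. Nbn and the order of genes were looked at after the values of Osgin2 and Decr1 were seen.

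Tuba1c (ENSMUSG00000043091), an alpha tubulin, was at 23.5, 23.5 and 27.2 CPM in proximal and 0.308, 0.293 and 0.328 in distal libraries. Within each group the libraries were nearly equal, and the log2 fold change was 6.32 ± 0.51 (adjusted p = 0.000206). It was called with any 1 library left out, with a term for Xist level (adjusted p = 0.00189) and after the GC correction (adjusted p = 0.00015). Outside the proximal libraries Tuba1c was above 3 CPM in 1 of the other 45 libraries, ventral CA1 replicate 1, at 50.2 CPM. Tuba1a and Tuba1b, close paralogs that share much of its sequence, were at 578 ± 33.7 and 130 ± 6.56 CPM in proximal and 497 ± 98.4 and 160 ± 19.4 in distal cells, and neither passed (adjusted p = 0.487 and 0.47). Eno1b, a gene near-identical in sequence to the glycolytic enzyme gene Eno1, was at 11.7 ± 4.06 CPM in proximal and 0.335 ± 0.249 in distal cells (adjusted p = 0.0111). Eno1b was also at 9.16 to 14 CPM in the 3 intermediate CA1 libraries and at 6.1 to 8 in the PV interneuron libraries. The pseudogene Atp6v0c-ps2 had the smallest p, with 41.5 CPM in proximal cells (log2 fold change 7.53, adjusted p = 3.58e-05). It was at 0, 27.9 and 15.9 CPM in the intermediate CA1 libraries and at 9.1 to 62.5 in SST interneurons, while its parent gene Atp6v0c was at 436 and 430 CPM in proximal and distal cells. Reads of these copies may be split between near-identical sequences, so their values are uncertain.

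Kit and Oprd1 are also known from peripheral sensory neurons, of which the proximal libraries held marker RNA at 6.74 to 9.32 CPM in sum; its part in their differences was not tested. Kit, the receptor of stem cell factor, was at 31.0, 11.6 and 37.6 CPM in proximal and 0.27, 0.46 and 2.39 in distal libraries. Its log2 fold change was 4.71 ± 0.81 (adjusted p = 0.0185, and 0.0436 after the GC correction). Kit was at 22.6 ± 2.03 CPM in dorsal, 29.1 ± 10.2 in superficial and 15.7 ± 8.07 in deep CA1 (SD, n = 3). The proximal mean, 26.7 CPM, was near these levels, and the distal mean, 1.04, was below them. SST and PV interneurons held 5.8 and 2.07 CPM of Kit. Kit is also a marker of CGE (caudal ganglionic eminence) interneurons, which have no library here. Of 8 CGE markers tested, edgeR called 1, Kit, higher in proximal cells, beside 0.818% of all genes. DESeq2 called 3, all higher in proximal cells, beside 5.66% called over all genes. The list's summed level was 1680 to 1980 CPM in proximal and 1690 to 2280 in distal libraries. The part of CGE interneurons in the Kit difference was not tested. The call on Kit was lost without proximal replicate 1 or 3 or without distal replicate 1 or 2. Cfap54, a protein of motile cilia, was at 31.7, 10.6 and 12.5 CPM in proximal and 0.539, 1.13 and 0.703 in distal libraries (adjusted p = 0.00924; 0.0131 after the correction), and was not called without distal replicate 1 or 2. Oprd1, the delta opioid receptor, was at 23.0, 0.988 and 7.88 CPM in proximal libraries and had no reads in the distal ones. Against a floor of 3 reads per distal library it was at least 83.6-fold higher in proximal cells (adjusted p = 0.0205). Rbms3, an RNA-binding protein, was at 31.3, 1.88 and 2.04 CPM in proximal and 0, 0.167 and 0 in distal libraries (adjusted p = 0.0397). Both genes were highest in proximal replicate 1, the library with 45.3 CPM of Gad1, and each was called in 1 of the 6 fits that left out a library, Oprd1 without proximal replicate 2 and Rbms3 without proximal replicate 3. In PV interneurons Oprd1 was at 144 ± 41.3 CPM and Rbms3 at 289 ± 19.4 (SD, n = 3). The part of interneuron RNA in these 2 differences was not tested.

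Genes of synaptic vesicles and transmitter release were higher in proximal cells where they passed. Of 37 tested, 5 were higher in proximal and 0 in distal cells, beside 0.818% and 0.244% of all genes. The median log2 fold change was 0.33, beside 0.00 over all genes. Slc17a7 (ENSMUSG00000070570), the vesicular glutamate transporter VGLUT1, was at 1020, 837 and 933 CPM in proximal and 471, 530 and 535 in distal libraries. No distal library reached the lowest proximal one (log2 fold change 0.89 ± 0.11, adjusted p = 0.00449). Cplx2, a complexin that regulates SNARE-driven fusion, was at 413 ± 19.2 and 216 ± 32.4 CPM (adjusted p = 0.00686), and Syn1, synapsin I, at 938 ± 26.2 and 577 ± 36.6 CPM (adjusted p = 0.0061). Vamp2, the vesicle SNARE, was at 925 ± 29.2 and 648 ± 21.7 CPM (adjusted p = 0.0185), and Syp, synaptophysin, at 1150 ± 55.6 and 803 ± 81.8 CPM (adjusted p = 0.0272). These differences were 1.45-fold to 1.94-fold. Slc17a7 and Cplx2 were called with any 1 library left out. Without 1 library between 2 and 5 of the list were called higher in proximal cells, and without both libraries high in Xist 0 were. After the GC correction 0 of the 37 were called and the median was 0.21, with adjusted p of 0.0879 for Slc17a7 and 0.059 for Cplx2. Rab3c, a vesicle GTPase, went the other way without passing, at 914 ± 161 CPM in proximal and 1340 ± 96.7 in distal cells (adjusted p = 0.0704). Sez6, a membrane protein that shapes dendritic excitatory synapses, was in no list and was at 388, 380 and 414 CPM in proximal and 195, 222 and 208 in distal libraries (adjusted p = 0.00434; 0.158 after the correction).

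Of 20 voltage-gated calcium channel genes, 2 were higher in proximal and 0 in distal cells (0.818% and 0.244% of all genes), with a median of 0.48, beside 0.00 over all genes. Both are gamma subunits that act as auxiliary proteins of AMPA receptors. Cacng2, stargazin, was at 98.3, 89.5 and 48.1 CPM in proximal and 21.5, 20.5 and 21.2 in distal libraries (log2 fold change 1.93 ± 0.29, adjusted p = 0.00957; 0.0387 after the GC correction). The spread lay among the proximal libraries, and the call was lost without proximal replicate 2 or distal replicate 1 or 2. Cacng3 was at 116 ± 4.46 and 50.1 ± 12.3 CPM (adjusted p = 0.0179; 0.0666 after the correction). After the correction 1 of the 20 was called, with a median of 0.15, and without both libraries high in Xist 0 were. Of 18 glutamate receptor genes, 1 was higher in proximal and 0 in distal cells, beside 0.818% and 0.244% of all genes. It was Grin1, the obligatory NMDA receptor subunit, at 665 ± 90.5 and 436 ± 19.8 CPM (adjusted p = 0.0277, and 0.64 after the correction). Gria2, an AMPA receptor subunit, was at 1980 ± 172 and 2380 ± 50.4 CPM and did not pass (adjusted p = 0.196).

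Of 23 immediate-early genes, 2 were higher in proximal cells and 1 in distal cells, beside 0.818% and 0.244% of all genes, and the median was 0.63. Egr1, an activity-induced transcription factor, was at 1240, 1140 and 933 CPM in proximal and 480, 672 and 599 in distal libraries (log2 fold change 0.95 ± 0.14, adjusted p = 0.00957). Arc, a regulator of AMPA receptor endocytosis, was at 276, 269 and 86.2 CPM in proximal and 72.8, 59.2 and 62.8 in distal libraries (adjusted p = 0.0359). Proximal replicate 3, the library low in Xist, had less Arc than the other proximal libraries and lay just above the distal ones. Egr2 did not pass, was also lowest in replicate 3 among the proximal libraries, and its groups overlapped, at 39.6, 28.9 and 3.18 CPM in proximal and 0.732, 4.85 and 0.422 in distal libraries (adjusted p = 0.12). Nr4a2 was the gene higher in distal cells. Between 0 and 2 genes of the list were called higher in proximal cells with 1 library left out, and 0 after the GC correction (adjusted p = 0.165 for Egr1 and 0.143 for Arc). Without both libraries high in Xist the list's median was 0.18, beside -0.06 over all genes.

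Of 49 axon guidance genes, 1 passed in each direction, beside 0.818% and 0.244% of all genes, and the median was 0.46 (0.13 after the GC correction). Unc5a, a netrin receptor, was at 160, 179 and 174 CPM in proximal and 63.3, 77.4 and 48.5 in distal libraries (log2 fold change 1.46 ± 0.19, adjusted p = 0.00602; 0.1 after the correction), and was called with any 1 library left out. Sema3a was the gene higher in distal cells. Of 66 cell adhesion genes, 2 were higher in proximal cells, beside 0.818% of all genes: Nrxn2, a presynaptic neurexin, at 102 ± 6.84 and 46.3 ± 4.16 CPM (adjusted p = 0.013), and Ncam1 at 324 ± 52.9 and 202 ± 13.5 CPM (adjusted p = 0.0336). Neither Nrxn2 nor Ncam1 was called after the correction.

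In a list of 36 plasticity kinases, phosphatases and related signalling genes, 1 was higher in proximal and 2 in distal cells. The shares of all genes were 0.818% and 0.244%, and the list's median was 0.04. Camk2b, the beta subunit of CaMKII, was at 1720 ± 97.1 CPM in proximal and 1250 ± 50.8 in distal cells (adjusted p = 0.0229). Pde1a, a calmodulin-dependent phosphodiesterase, was at 448 ± 64.0 and 754 ± 60.9 CPM (adjusted p = 0.0135), and Prkar1a, a regulatory subunit of protein kinase A, at 630 ± 54.6 and 910 ± 15.0 CPM (adjusted p = 0.0272). Among 18 genes of calcium-binding proteins and related regulators, 2 were higher in proximal cells, beside 0.818% of all genes. They were Camk2n1, an inhibitor of CaMKII and not itself a calcium-binding protein, and Hpcal4, a neuronal calcium sensor. They were 1.66-fold and 1.54-fold higher (adjusted p = 0.0314 each, edgeR). Of 39 transcription factors of pyramidal neurons, 1 passed in each direction, beside 0.818% and 0.244% of all genes. Nfix was higher in proximal cells (217 ± 14.6 and 107 ± 18.8 CPM, adjusted p = 0.0109). Nr3c2, the mineralocorticoid receptor, was higher in distal cells (362 ± 28.1 and 535 ± 43.0 CPM, adjusted p = 0.0419). None of these 7 genes was called after the GC correction, and Camk2b and Hpcal4 were called in none of the 6 fits that left out a library.

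Several groups had 0 genes called by edgeR in either direction. Of 16 GABA receptor genes, 5 had an unadjusted p under 0.05 and DESeq2 called 3. Of 25 monoamine and acetylcholine receptor genes the counts were 7 and 3, of 13 neuropeptides and neurotrophins 2 and 1, and of 10 sodium channels 2 and 0. Of 14 heat shock and stress genes they were 4 and 2, and of 12 protein genes of the mitochondrial genome 2 and 0. Of 75 nuclear oxidative phosphorylation genes, 21 had an unadjusted p under 0.05 and DESeq2 called 7, all higher in distal cells. Over all genes, 13.5% had an unadjusted p under 0.05, and DESeq2 called 5.66%, with 1.99% higher in distal cells. Of these 75, 14 had a positive log2 fold change, with a median of -0.26. Cox6b1, a cytochrome oxidase subunit, was closest at 112 ± 11.8 CPM in proximal and 187 ± 30.2 in distal cells (adjusted p = 0.0666). Of 17 neuropeptide receptor genes, Oprd1 alone passed, higher in proximal cells, beside 0.818% of all genes. Htr2c, a serotonin receptor, missed the threshold at 3.53, 0.889 and 0.989 CPM in proximal and 12.4, 16.9 and 12.8 in distal libraries (adjusted p = 0.064).

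**Figure D4:**
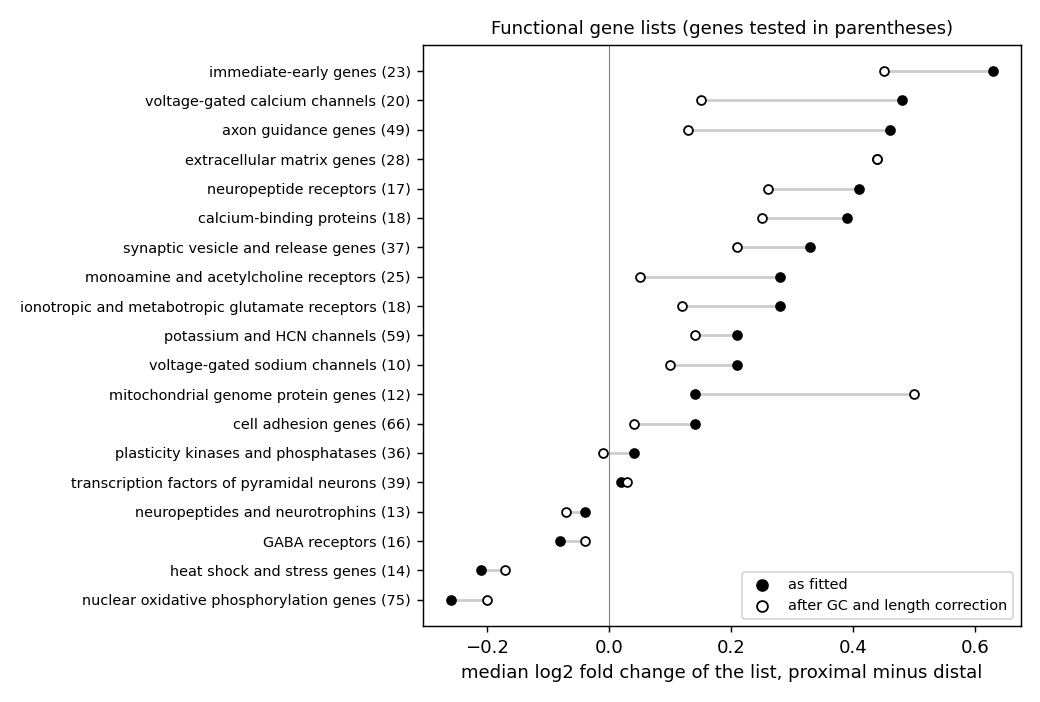
Median log2 fold change, proximal minus distal, of each functional gene list (genes tested in parentheses), as fitted (filled) and after the correction for GC content and length (open). Immediate-early genes have the highest median as fitted, 0.63, and oxidative phosphorylation genes the lowest, -0.26; most lists move toward 0 with the correction, while the 12 mitochondrial genome genes move away from it. The 2 points coincide for extracellular matrix genes.

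The called genes were then followed in populations that share none of the 6 libraries. Of the 31 genes higher in distal cells, 23 (74.2%) were higher in deep than in superficial CA1 cells, beside 52.3% of all 12533 genes tested there. Of the 31, 7 were called higher in deep cells (22.6%, beside 1.6% of all genes) and 0 in superficial cells. Ndst4 was at 300 ± 53.7 CPM in deep and 24.9 ± 3.58 in superficial cells (SD, n = 3; log2 fold change deep minus superficial 3.63 ± 0.18, adjusted p = 1.89e-06). Col11a1 was at 98.7 ± 51.4 and 12.4 ± 4.89 CPM (adjusted p = 0.00273), and Nr4a2 at 233 ± 87.8 and 77.8 ± 6.9 CPM (adjusted p = 0.00283). All 3 were thus high in deep as in distal cells. Of 4 deep CA1 genes tested, 2 were higher in distal cells, Ndst4 and Col11a1, beside 0.244% of all genes tested. The list median was -2.01 (-2.02 after the GC correction). The deep markers Cartpt and Cnr1 did not pass (adjusted p = 0.0764 and 0.895). Without both libraries high in Xist 0 of the 4 were called, with a median of -2.21. Of 5 superficial CA1 genes edgeR called 0. An unadjusted p under 0.05 was found for 1 and DESeq2 called 0, beside 13.5% and 5.66% of all genes. Calb1, calbindin, was at 71.8 ± 4.54 CPM in proximal and 52.8 ± 29.7 in distal cells (adjusted p = 0.658). Whether the distal libraries held more deep cells was not tested.

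Of the 98 genes higher in proximal cells that were tested there, 37 were higher in deep cells. Of the 98, 12 were called higher in superficial cells (12.2%, beside 0.886% of all genes) and 3 in deep cells (3.06%). Ak5 was one of these, at 20.1 CPM in deep and 62.0 in superficial cells (adjusted p = 0.00673). Across the 129 called genes with both values, Pearson's r between the log2 fold changes was -0.29, and across 11972 genes it was -0.10. Both values are across genes, which are not independent replicates, and such values were computed for 3 comparisons.

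**Figure D5:**
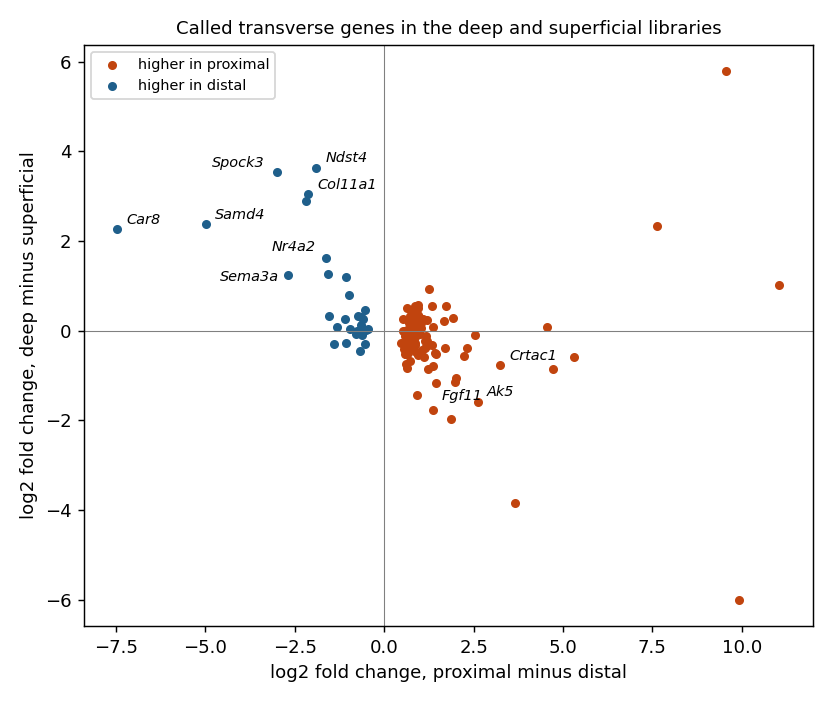
Log2 fold change deep minus superficial (y) against proximal minus distal (x) for the 129 called genes with both values. Of the 31 genes higher in distal cells, 23 lie above 0 on the y axis, with Ndst4, Spock3 and Col11a1 highest; of the 98 genes higher in proximal cells, 37 do.

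Along the long axis, 12 of 30 genes higher in distal cells were called higher in dorsal than ventral CA1 (40%, beside 6.87% of all genes) and 4 higher in ventral CA1 (13.3%, beside 7.62%). Osbpl3 was at 34.8 CPM in dorsal and 1.35 in ventral CA1 (adjusted p = 2.8e-06). Of 96 genes higher in proximal cells, 17 were called higher in dorsal (17.7%) and 26 in ventral CA1 (27.1%). Kit was at 22.6 CPM in dorsal and 373 in ventral CA1 (adjusted p = 1.94e-09), Crtac1 at 13.2 and 96.8 (adjusted p = 9.03e-06), and Fgf11 at 33.6 and 117 (adjusted p = 6.84e-06). These 3 were thus higher in ventral than dorsal CA1, and higher in proximal than distal cells. The levels were not alike: Kit was at 26.7 CPM in proximal cells, near its dorsal level, and at 1.04 in distal cells. Crtac1 was at 36.3 CPM in proximal cells. Pearson's r across the 126 called genes was -0.60, and -0.16 across 11928 genes.

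Between dorsal CA3 and dorsal CA1, 26 of 97 genes higher in proximal cells were called higher in CA3 (26.8%, beside 13.1% of all genes) and 22 higher in CA1 (22.7%, beside 10.1%). Hapln4 was at 259 CPM in CA3 and 52.3 in dorsal CA1 (adjusted p = 4.39e-08), Ak5 at 273 and 38.8 (adjusted p = 2.38e-08), and Cacng2 at 119 and 45.4 (adjusted p = 7.92e-06). Fgf11 went the other way, at 3.79 and 33.6 CPM (adjusted p = 2.86e-05). Of 30 genes higher in distal cells, 5 were called higher in CA3 (16.7%) and 14 in CA1 (46.7%), among them Ndst4 at 2.98 and 93.2 CPM (adjusted p = 9.43e-09). Pearson's r across the 127 called genes was 0.23, and 0.06 across 12143 genes. The dorsal CA1 libraries serve in both of these last comparisons.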

How the data were processed

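The members and gene lists were chosen with earlier results of these data known. The authors deposited raw read counts per Ensembl gene and, in a second table, Cuffdiff FPKM values per library; TopHat2 2.0.6, Cuffdiff 2.1.1, HTSeq and DESeq2, with builds NCBIM37 and mm9, are named per the submitters' processing notes, without their roles. Whether counting used strand is not given in the sources used here, so overlapping genes may share reads. Count columns carry numbers 1 to 3 and the labels 0 to 2, so a column was tied to its group and named by the count table's number. Counts were fitted in edgeR 4.0.16 (R 4.3.3) on the 6 libraries with its quasi-likelihood test (robust dispersion), after TMM scaling and the filterByExpr filter, and p-values were adjusted over all genes tested (Benjamini-Hochberg); the biological coefficient of variation was 0.522. The method was tested on simulated counts. Replicates differed beyond counting noise (chi-square per degree of freedom 44.7 to 89.4). The series calls replicates biological without saying what was separate, so a p-value measures only how these libraries vary.

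Named genes were called genes whose groups did not overlap and whose higher group averaged 10 CPM or more: the first 12 per direction by fold, the first 6 by p, every called list member, and up to 3 further members per functional list as examples. Some genes this rule names are not reported here. The rule skipped predicted, ribosomal, mitochondrial and sex-linked genes. The lists of peripheral sensory neuron and Purkinje cell markers were added, and Atp6v0c-ps2, Nbn, Tuba1a, Tuba1b, Atp6v0c and the markers were named after their values were seen. Gene names, and transcript GC content and length, came from GENCODE M21 (GRCm38) by Ensembl identifier (32897 of 37620 matched), and coordinates were used only for the promoters. The GC and length correction was a loess fit per library used as an offset. Alternatives were DESeq2 1.42.0, RLE scaling, other filters, single libraries left out, a replicate block, a joint fit of 30 CA1 libraries, and limma 3.58.1 on log2(FPKM + 1) and log2(FPKM + 0.1) of genes with a mean of at least 1 FPKM in a group. The fits without 2 libraries, with a term for Xist level and with the GC correction were added after seeing the data. No single-gene interval covers more than the spread between 3 libraries.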

Additional observations from a re-analysis of the deposited data

How the results depend on the processing

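Beside the 135 genes called, DESeq2 called 778 (504 higher in proximal and 274 in distal cells, 64.8% against 77% proximal in edgeR), edgeR without a filter on low counts 301, and with a mean of at least 5 CPM 239. Limma on FPKM called 43 with a pseudocount of 1 and 47 with 0.1 (88.4% and 87.2% higher in proximal cells). Leaving out 1 library gave 16 to 94 calls. The fits added after seeing the data gave 5 without proximal replicates 1 and 2, 6 with a term for Xist level and 23 with the GC and length correction. Of the 50 called genes named in the text, 13 to 35 stayed called with 1 library left out, 32 in the fit of 30 CA1 libraries, 18 and 20 on FPKM with pseudocounts of 1 and 0.1, 2 without proximal replicates 1 and 2, 2 with the Xist term and 18 after the GC correction. The share of distal-higher genes that were higher in deep than superficial cells was 74.2%, 70.1% without a filter, 69.1% at 5 CPM, and 80% to 100% with 1 library left out, on 4 to 17 genes. No named gene reversed its direction under these alternatives. With the replicate number as a block 135 genes were called, 113 of them among the 135, and no pairing showed (same-numbered libraries' deviations correlated at -0.01 to 0.00). The cause of these changes was not tested. Depth was 19.4 M to 32.0 M gene reads, and 3 libraries per group and a biological coefficient of variation of 0.522 limit what small differences can be called.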
